A study of Mus musculus with 12 samples.

Results

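Interferon-stimulated genes are a shared antiviral programme, and 39 of them were followed here by gene symbol through raw RNA sequencing counts of NU1 mouse urothelial cells. The members were the rows of a given list of symbols, chosen with earlier results of these data known. Their shares beside those of all tested genes are therefore not an independent test. All 39 were found among the 23337 rows of the count table, and 35 had enough counts to be tested. The other 4, Oas2, Oasl1, Mx1 and Zbp1, were removed by the filter on low counts and are described by their values. Of the 35, 27 differed between the 3 culture experiments, where 21.1% of all tested genes did, with experiment 9 highest in most. In quiescence 1 rose in control cells and none in knockdown cells, and 9 and 10 did with a term for experiment in the model, where 8.33%, 7.59%, 16.8% and 15.9% of all tested genes rose. Between hairpins none differed without that term and 1 did with it, in quiescent cells, where 0.435% and 3.55% of all tested genes did.

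NU1 is a line of normal mouse urothelium, labelled wild type, that became immortal by passaging without an added oncogene. Stag2 codes for 1 of the alternative cohesin subunits, and cohesin is a ring that ties sister chromatids together and shapes loops of chromatin. The series asks how its loss changes expression in growing and in resting urothelial cells. The 12 libraries formed 4 groups of 3. Proliferating controls carried the hairpin labelled shNT, and proliferating knockdown cells carried the hairpin labelled sh4, with Stag2 as the target according to the series' design text. Quiescent controls and quiescent knockdown cells carried the same 2 hairpins, had grown to confluence and had then received rosiglitazone at 1 µM and erlotinib at 0.5 µM, with day 7 in the label. Erlotinib inhibits the EGF receptor kinase, and rosiglitazone is an agonist of PPAR gamma. All groups shared a serum-containing medium with EGF, insulin, thyroid hormone, hydrocortisone and cholera toxin. Hairpins were delivered by lentivirus, so every library came from cells with a lentiviral hairpin, and a single knockdown hairpin on 1 cell line limits what the knockdown groups stand for. Each group held 1 library from each of experiments 5, 7 and 9, which the labels also give as batches 3, 1 and 2. Nothing else in the labels says that the cultures were separate, so p-values measure the spread between these libraries.

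Type I and type III interferons bind receptors that activate the kinases JAK1 and TYK2, which phosphorylate STAT proteins such as STAT2. With IRF9 these form a complex that binds the interferon-stimulated response element, or ISRE, in promoters. Interferon gamma acts mainly through another element, called GAS. The genes switched on include RNA sensors, enzymes that degrade or trap foreign RNA, membrane proteins that block viruses, and the STAT and IRF factors themselves, and epithelial cells such as urothelium keep a low level of many of them without infection.

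The letters of these elements are present in many of the members' promoters. Promoter windows (250 bases before the start of transcription and 50 after it) were available from RefSeq (GRCm38.p6) for 30 of the 39 members. The ISRE was searched as GAAANNGAAA on both strands, which on the other strand reads TTTCNNTTTC, and was found in 15 of 30 members (50%), against 3.99% of all 27025 genes with a window. The GAS was searched as TTCNNNGAA, which reads the same on both strands, and was found in 7 of 30 (23.3%), against 9.55% of genes. Matches of the 2 motifs may overlap. A match describes letters and does not show that a factor binds. Stretches around the matches are shown for 7 members whose values recur below: genes with the ISRE that stood highest in experiment 9, and Irf1, which has a GAS and no ISRE in its window and followed another order. Capitals mark the bases matched by the ISRE, or by the GAS in Irf1 only. Overlapping matches run together, the window of Bst2 also holds a GAS match that is not marked, and all are printed 5′ to 3′ on the strand of the gene.
Isg15 (chr4:156200850-156200909, minus strand): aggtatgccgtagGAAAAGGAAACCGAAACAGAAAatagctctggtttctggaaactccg
Ifit1 (chr19:34640779-34640838, plus strand): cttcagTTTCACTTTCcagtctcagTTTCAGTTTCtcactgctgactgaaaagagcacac
Ifit3 (chr19:34583382-34583441, plus strand): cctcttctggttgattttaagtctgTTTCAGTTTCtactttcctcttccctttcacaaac
Oas3 (chr5:120777700-120777759, minus strand): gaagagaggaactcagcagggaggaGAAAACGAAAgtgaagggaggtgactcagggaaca
Rsad2 (chr12:26456538-26456597, minus strand): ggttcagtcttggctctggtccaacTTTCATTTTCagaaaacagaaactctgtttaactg
Bst2 (chr8:71537562-71537621, minus strand): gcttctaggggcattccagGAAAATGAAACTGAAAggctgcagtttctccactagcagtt
Irf1 (chr11:53769899-53769957, plus strand): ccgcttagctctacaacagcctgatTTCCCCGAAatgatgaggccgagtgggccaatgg

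These stretches lie upstream of the start of transcription. That of Isg15 runs from base -91 to -32 and holds 3 overlapping ISRE matches, that of Ifit1 from -110 to -51 with 2 separate ones, and that of Bst2 from -149 to -90 with 2 overlapping ones. Members also sit side by side in the genome: 17 of them form 7 clusters with neighbours within 200 kb, such as Ifit2, Ifit3 and Ifit1 on chromosome 19 (99.5 kb), Oas2, Oas3 and Oas1a on chromosome 5 (177.2 kb), and Parp14, Dtx3l and Parp9 on chromosome 16 (140.7 kb). Reads of close relatives, such as the Ifit, Oas, Mx, Gbp and Trim30 genes, may be split between copies in a way that is unknown here, so values of single members of these families are uncertain to that extent.

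The libraries held 14524429 to 21987539 counts. Stag2, the targeted gene, stood at 113 to 146 CPM (counts scaled to a common library total, after TMM normalization) in proliferating controls and 24.6 to 33.3 CPM in proliferating knockdown cells, and at 107.5 to 128 CPM in quiescent controls and 9.43 to 15.3 CPM in quiescent knockdown cells, so no library went against its hairpin label. Mki67, a marker of cycling cells, was at 110.4 to 264 CPM in proliferating and 0.552 to 33.6 CPM in quiescent libraries. Epithelial markers were high (Krt8 3493 to 9042 CPM, Epcam 391 to 888 CPM), while the basal cell factor Trp63 had no count and the uroplakins Upk1a, Upk1b, Upk2 and Upk3a, which define mature urothelium, did not pass 3.94 CPM. Of 7 leukocyte markers, Emr1 and Cd3e had no count, Ptprc and Itgam did not pass 0.408 and 0.410 CPM, Cd68 was at 1.55 to 9.36 CPM and Csf1r at 10.5 to 163 CPM.

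Compared per kilobase of exon, which allows genes to be set beside each other, the mean levels of the members over the 12 libraries spanned a wide range. Ifitm3, which blocks fusion of viral and cell membranes, stood at 65.3 CPM per kb, and Bst2, the surface protein tetherin, at 61.5 CPM per kb. Ifi35 (18.9), Samd9l (18.6), Irf1 (12.1), Eif2ak2 (11.35) and Isg15 (9.42 CPM per kb) followed at an intermediate level. The lowest were Zbp1, a sensor of Z-form nucleic acids, at 0.024, Mx1 at 0.0581 and Oas2 at 0.109 CPM per kb. The order rests in part on experiment 9. Ifitm3 stood at 5.08 to 29.4 CPM in experiments 5 and 7 and at 41.0 to 227 CPM in experiment 9. Isg15 stood at 1.035 to 3.76 and at 7.22 to 27.0 CPM. Irf1 and Samd9l were not higher in experiment 9 than in the mean of experiments 5 and 7.

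Experiment 9 held the highest level of most members, in growing and resting cells and with either hairpin. It was the highest of the 3 experiments in all 4 groups for 27 of 39 members (24 of the 35 tested), and in 3 of 4 groups for 6 more. By the same rule, experiment 9 was highest in all 4 groups for 7.51% of the 12406 tested genes. Experiment 5 was highest in all 4 groups for 1 member, Irf1, and experiment 7 for none, against 7.43% and 4.77% of tested genes. In an F test of the 3 experiments with the 4 groups in the model (edgeR's quasi-likelihood test, Benjamini-Hochberg adjustment over all genes), 27 of the 35 members passed the threshold of 0.05, where 21.1% of all tested genes did. The median of the 35 members was 1.76 higher in experiment 9 than in the mean of experiments 5 and 7 on the log2 CPM scale. The median of all tested genes differed by less than 0.01 (-0.0045), but TMM scaling itself keeps that median small.

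**Figure D1:**
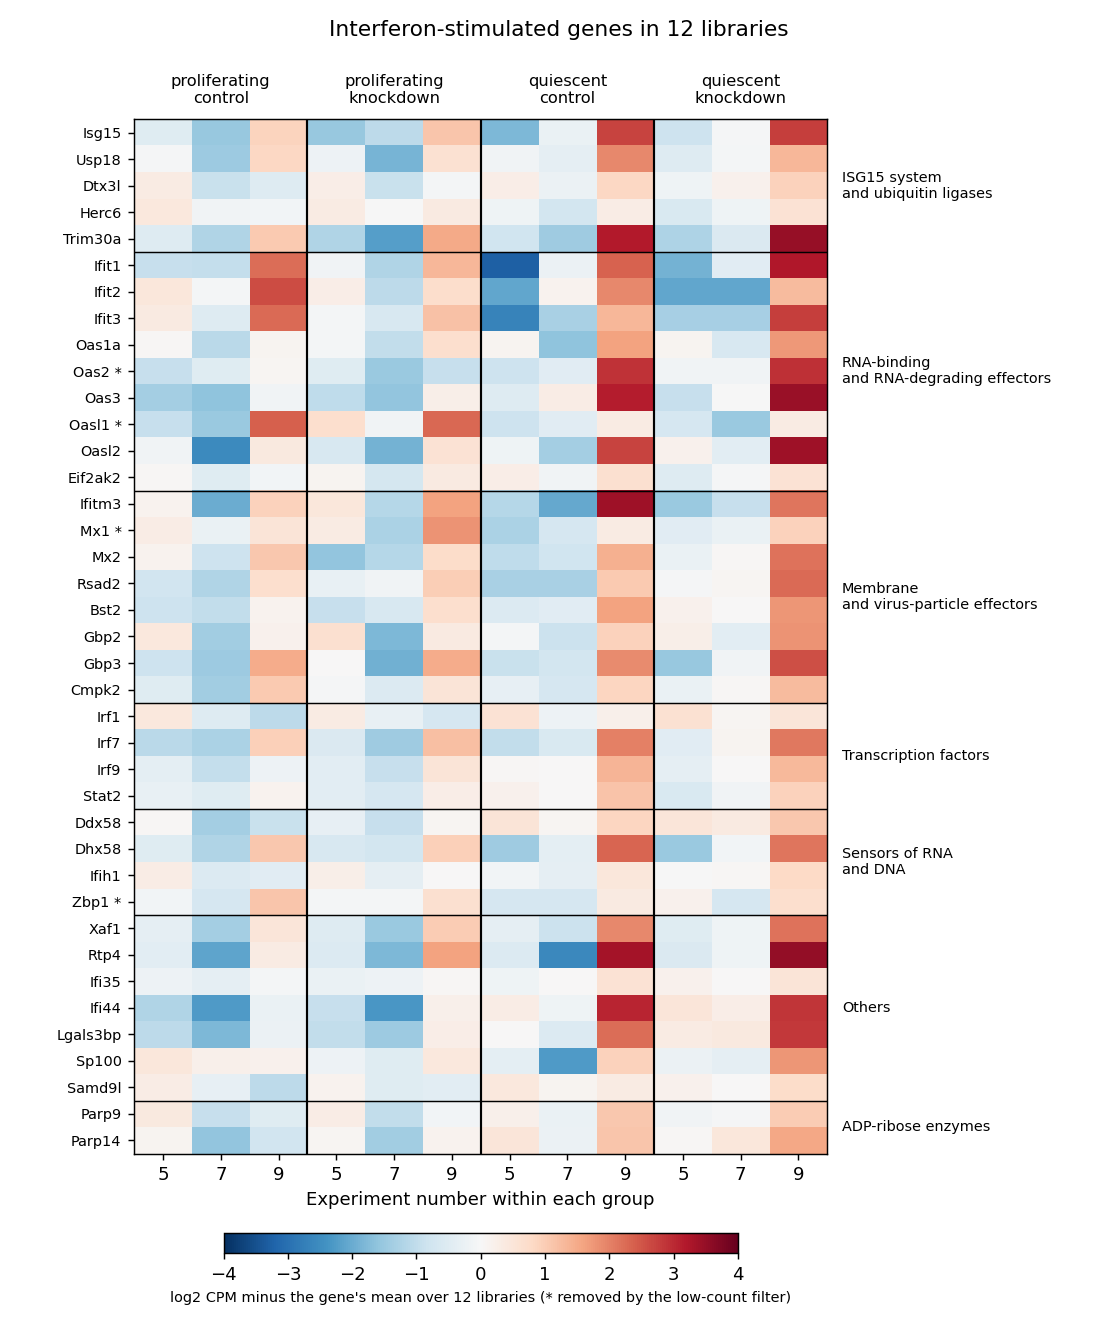
Level of each of the 39 members (rows, by role) in the 12 libraries (columns, by group and experiment number), as log2 CPM minus the gene's mean over all libraries; red is above and blue below that mean, and asterisks mark the 4 members removed by the filter on low counts. The experiment 9 columns are red for most members in all 4 groups, and most strongly in the quiescent groups.

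Values below are CPM in experiments 5, 7 and 9, in that order. Among the ISG15 system and ubiquitin ligases, 3 of 5 members differed between experiments. Isg15 encodes the ubiquitin-like protein that is attached to other proteins after interferon exposure. It stood at 2.69, 1.27 and 7.22 in proliferating controls, 1.28, 1.79 and 8.49 in proliferating knockdown cells, 1.03, 3.18 and 25.6 in quiescent controls and 2.13, 3.76 and 27.0 in quiescent knockdown cells. The experiment 9 libraries were the highest in every group, by 2.68-fold over the next in proliferating controls and by 7.19-fold in quiescent knockdown cells (log2 fold change of experiment 9 against 5 of 3.03, edgeR adjusted p = 0.0011). Trim30a, a TRIM-family ubiquitin ligase, stood at 0.449, 0.231 and 1.53 in proliferating controls, 0.233, 0.0596 and 2.18 in proliferating knockdown cells, 0.345, 0.184 and 7.10 in quiescent controls and 0.227, 0.417 and 8.79 in quiescent knockdown cells. It was under 0.5 CPM in all 8 libraries of experiments 5 and 7 and above 1.5 CPM in all 4 of experiment 9 (log2 fold change of experiment 9 against 5 of 3.75, edgeR adjusted p = 0.000526). Usp18, which removes ISG15 and restrains the receptor, was likewise higher in experiment 9 (1.37, adjusted p = 0.00325), whereas Herc6, the mouse ISG15 ligase, and Dtx3l, a ubiquitin ligase, were not past the threshold (adjusted p = 0.215 and 0.0993).

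Among the RNA-binding and RNA-degrading effectors, 6 of 7 tested members differed between experiments. Ifit1, which binds RNA lacking the cap modification of the host, stood at 1.18, 1.15 and 11.4 in proliferating controls, 2.10, 0.953 and 6.03 in proliferating knockdown cells, 0.138, 1.96 and 12.4 in quiescent controls and 0.544, 1.67 and 22.7 in quiescent knockdown cells. In experiment 9 it was above every library of the other experiments, and the difference from experiment 5 was 3.63 on the log2 scale (edgeR adjusted p = 0.00279). Ifit3, its partner, stood at 0.842, 0.404 and 3.41 in proliferating controls, 0.583, 0.357 and 1.55 in proliferating knockdown cells, 0, 0.184 and 1.73 in quiescent controls and 0.181, 0.179 and 4.92 in quiescent knockdown cells. Ifit2, the third of this family, stood at 0.561, 0.346 and 2.90 in proliferating controls, 0.466, 0.119 and 0.689 in proliferating knockdown cells, 0, 0.428 and 1.73 in quiescent controls and 0, 0 and 1.05 in quiescent knockdown cells. Both were under 1 CPM in experiments 5 and 7, where 3 counts, the limit that a count of 0 allows, corresponded to 0.136 to 0.207 CPM in these libraries. The highest Ifit2 value was in proliferating controls of experiment 9 (51 counts).

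The Oas genes encode enzymes that make oligoadenylates, an antiviral signal, when they bind double-stranded RNA. Oas3 stood at 0.561, 0.462 and 1.48 in proliferating controls, 0.758, 0.477 and 1.95 in proliferating knockdown cells, 1.10, 2.02 and 15.2 in quiescent controls and 0.816, 1.61 and 19.2 in quiescent knockdown cells. The quiescent libraries of experiment 9 lay far above the other quiescent libraries (7.53-fold in controls and 11.9-fold in knockdown cells over the next experiment). Oasl2, an Oas-like protein, stood at 5.16, 0.866 and 7.39 in proliferating controls, 3.56, 1.43 and 8.49 in proliferating knockdown cells, 4.97, 2.14 and 37.1 in quiescent controls and 6.39, 4.17 and 60.1 in quiescent knockdown cells, again highest in experiment 9 of each group. Eif2ak2, the RNA-activated kinase PKR that halts translation, differed less (range of experiment means 0.71 in log2 CPM, edgeR adjusted p = 0.0528).

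All 7 tested membrane and virus-particle effectors differed between experiments. Ifitm3 stood at 23.8, 5.37 and 41.0 in proliferating controls, 29.4, 9.59 and 66.3 in proliferating knockdown cells, 9.66, 5.08 and 227 in quiescent controls and 7.66, 11.3 and 95.6 in quiescent knockdown cells, with 227 CPM in the quiescent control of experiment 9 as its highest value. Bst2, which tethers budding virus particles, stood at 25.1, 22.7 and 48.7 in proliferating controls, 23.6, 28.5 and 70.9 in proliferating knockdown cells, 30.3, 32.2 and 137 in quiescent controls and 50.1, 45.2 and 152 in quiescent knockdown cells. Its experiment 9 libraries lay above the other 2 in every group (1.59 against experiment 5, edgeR adjusted p = 0.00029). Rsad2, or viperin, which makes a chain-terminating nucleotide, stood at 4.04, 2.94 and 11.0 in proliferating controls, 5.59, 6.32 and 13.8 in proliferating knockdown cells, 2.76, 2.75 and 14.4 in quiescent controls and 6.71, 7.39 and 33.5 in quiescent knockdown cells, with experiment 9 again highest in each group (1.88, adjusted p = 0.000452). Mx2 belongs to the dynamin-like GTPases, and the annotation used for exon lengths labels it a polymorphic pseudogene. Mx2 stood at 0.449, 0.173 and 0.966 in proliferating controls and 0.0583, 0.119 and 0.746 in proliferating knockdown cells. It stood at 0.138, 0.184 and 1.25 in quiescent controls and 0.317, 0.417 and 2.23 in quiescent knockdown cells. Its 122 counts over the 12 libraries were the lowest total of the tested members. Gbp2, a guanylate-binding protein, stood at 4.88, 1.33 and 4.09 in proliferating controls, 5.77, 0.953 and 4.71 in proliferating knockdown cells, 3.45, 1.96 and 6.92 in quiescent controls and 4.31, 2.68 and 12.9 in quiescent knockdown cells. Gbp2 was an exception in growing cells, where experiment 5 was above experiment 9, while experiment 7 was the lowest in all 4 groups.

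**Figure D2:**
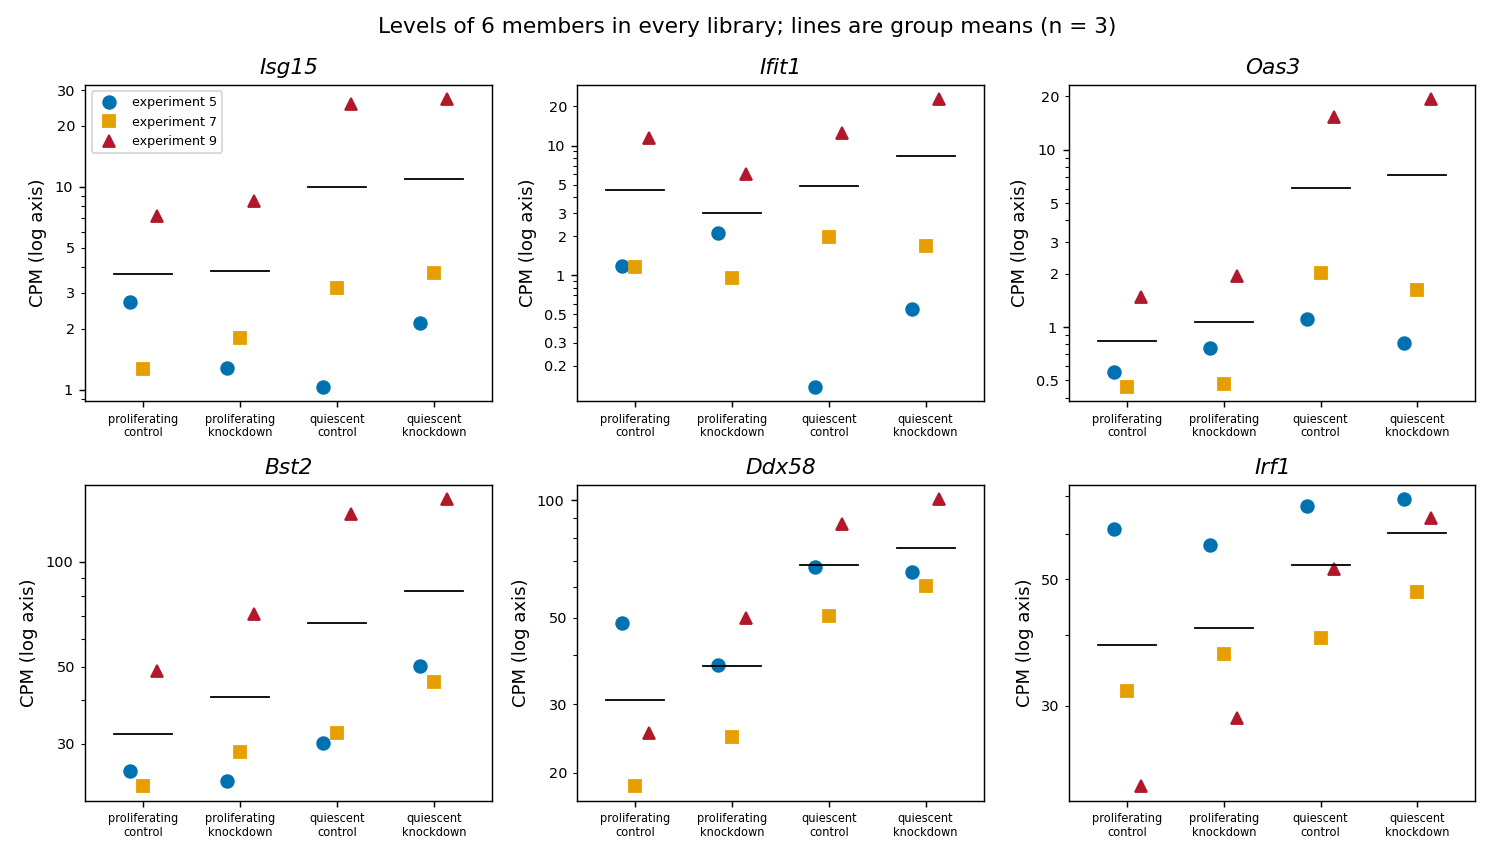
CPM on a log axis of 6 members in the 4 groups; each point is 1 library (circle experiment 5, square experiment 7, triangle experiment 9), and the line is the group mean of 3. Triangles are on top in every group for Isg15, Ifit1, Oas3 and Bst2, while Irf1 has circles on top in every group.

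All 4 transcription factors differed between experiments, 3 of them with experiment 9 on top. Irf7, which amplifies interferon production, stood at 1.91, 1.67 and 8.18 in proliferating controls, 2.74, 1.49 and 9.64 in proliferating knockdown cells, 2.07, 2.69 and 17.3 in quiescent controls and 2.99, 4.47 and 18.3 in quiescent knockdown cells (experiment 9 against 5, 2.39, edgeR adjusted p = 0.000167). Irf9, the DNA-binding part of the STAT complex, stood at 26.8, 18.3 and 30.9 in proliferating controls, 26.2, 18.8 and 50.7 in proliferating knockdown cells, 36.8, 35.7 and 91.1 in quiescent controls and 27.6, 36.0 and 86.7 in quiescent knockdown cells (1.03, adjusted p = 0.00375). Stat2, its partner, stood at 28.8, 25.6 and 38.98 in proliferating controls, 26.5, 22.4 and 42.4 in proliferating knockdown cells, 39.8, 36.2 and 77.8 in quiescent controls and 23.1, 32.0 and 68.1 in quiescent knockdown cells (0.91, adjusted p = 0.00375). These 3 factors were highest in experiment 9 in every group. Irf1, which interferon gamma and several other signals induce, followed another order, at 61.4, 31.8 and 21.6 in proliferating controls, 57.5, 36.9 and 28.6 in proliferating knockdown cells, 67.3, 39.5 and 52.2 in quiescent controls and 69.2, 47.5 and 64.0 in quiescent knockdown cells. It was highest in experiment 5 in every group and lower in experiment 9 than in 5 by 0.72 on the log2 scale (adjusted p = 0.0292).

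Sensors and the remaining members were mixed. Dhx58, or LGP2, differed between experiments (experiment 9 against 5, 2.71, edgeR adjusted p = 0.00217), while Ddx58, which encodes the RNA sensor RIG-I, and Ifih1, which encodes MDA5, did not pass (adjusted p = 0.0509 and 0.144). Ddx58 stood at 48.4, 18.5 and 25.3 in proliferating controls, 37.9, 24.7 and 49.9 in proliferating knockdown cells, 67.5, 50.4 and 86.7 in quiescent controls and 65.5, 60.1 and 101 in quiescent knockdown cells. Ifih1 stood at 37.5, 21.1 and 22.3 in proliferating controls, 36.4, 23.7 and 30.8 in proliferating knockdown cells, 28.4, 23.9 and 42.3 in quiescent controls and 30.6, 31.7 and 52.9 in quiescent knockdown cells. For both, experiment 5 was the highest in proliferating controls. Rtp4, a chaperone of membrane receptors, had the widest range of experiment means of all members, 3.86 in log2 CPM, and stood at 1.74, 0.462 and 3.01 in proliferating controls, 1.57, 0.596 and 7.52 in proliferating knockdown cells, 1.59, 0.306 and 24.9 in quiescent controls and 1.54, 2.09 and 28.5 in quiescent knockdown cells. Ifi44, a cytoplasmic protein of the programme, stood at 3.42, 1.56 and 6.59 in proliferating controls, 4.14, 1.49 and 9.24 in proliferating knockdown cells, 9.80, 7.04 and 66.2 in quiescent controls and 11.1, 9.60 and 58.3 in quiescent knockdown cells. Lgals3bp, a secreted glycoprotein that binds galectins, stood at 5.89, 3.46 and 10.3 in proliferating controls, 6.18, 4.41 and 14.7 in proliferating knockdown cells, 12.5, 8.26 and 58.0 in quiescent controls and 15.3, 16.2 and 87.0 in quiescent knockdown cells. Ifi35, a partner of the protein Nmi, had the narrowest range, 0.38, yet passed (adjusted p = 0.036), at 27.6, 24.9 and 30.1 in proliferating controls, 26.5, 28.0 and 33.0 in proliferating knockdown cells, 28.4, 32.2 and 47.5 in quiescent controls and 35.9, 32.7 and 45.5 in quiescent knockdown cells. Sp100, a nuclear body protein with at most 65 counts in a library, stood at 1.46, 1.21 and 1.19 in proliferating controls, 0.874, 0.715 and 1.44 in proliferating knockdown cells, 0.759, 0.122 and 2.09 in quiescent controls and 0.861, 0.775 and 3.81 in quiescent knockdown cells and did not pass (adjusted p = 0.0704), and neither did Samd9l (0.291).

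Few members passed a test of experiments 5 and 7, though experiment 7 was lower on average in growing cells. The mean log2 CPM of the 39 members was 2.18 in experiment 5 and 1.35 in experiment 7 in proliferating controls. It was 2.16 and 1.38 in proliferating knockdown cells, 1.87 and 1.78 in quiescent controls and 2.00 and 2.19 in quiescent knockdown cells. In a test of experiments 5 and 7 alone, 2 of 32 members passed the threshold, both lower in experiment 7. They were Irf1 (-0.72, edgeR adjusted p = 0.024) and Oas1a (-1.13, adjusted p = 0.0424). Of 12296 genes 4.46% passed, so the members' share is near the background. Members with and without the ISRE letters were both higher in experiment 9: the excess over experiments 5 and 7 had a median of 1.85 over 15 members with the letters (0.30 to 3.44) and of 1.31 over 14 tested members without them (-0.38 to 2.63), and the ranges overlap. Other values moved with the experiment only in part. The summed leukocyte markers, most of it Csf1r, stood at 25.1, 33.3 and 15.6 CPM in proliferating controls, 26.3, 40.45 and 55.4 CPM in proliferating knockdown cells, 39.7, 61.9 and 42.0 CPM in quiescent controls and 111, 110.2 and 169.8 CPM in quiescent knockdown cells of experiments 5, 7 and 9. Experiment 9 was the highest in both knockdown groups and in neither control group. Cd68 averaged 4.25, 2.85 and 6.98 CPM in the 3 experiments. The part of these markers in the result was not tested. The endothelial markers did not pass 0.239 CPM in sum. The summed fibroblast markers were 0.345 to 2.21, 0.367 to 0.775 and 1.13 to 2.27 CPM, and their part in the result was not tested. Library totals in experiment 9 (16349238 to 17954813 counts) lay within the range of the others.

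The interferons themselves were nearly undetected. Of 21 type I, II and III interferon genes in the list, none reached the filter: Ifna4 and Ifnz each had a single count in 2 libraries of experiment 9, Ifne a single count in 1 quiescent knockdown library of experiment 5 and in that of experiment 7, and the other 18 had none in any library. At these depths a count of 0 allows up to 3 counts per library, so low transcription was not detectable. All 6 receptor genes were expressed and did not follow the members. Mean CPM in experiments 5, 7 and 9 was 114, 106 and 99.7 for Ifnar1 and 29.7, 23.7 and 28.1 for Ifnar2, the receptor of type I interferons. The receptor of interferon gamma had 116, 99.8 and 80.6 for Ifngr1 and 82.9, 67.8 and 78.6 for Ifngr2. For the type III receptor, Ifnlr1 (listed as Il28ra) had 18.2, 19.4 and 14.9 and Il10rb 83.7, 71.7 and 70.3. Only Ifngr1 differed between experiments (edgeR adjusted p = 0.0458), and it was lowest in experiment 9 (-0.52 against experiment 5). A wider list of the interferon pathway was likewise chosen with earlier results of these data known. Of its 76 tested genes, 29 differed between experiments, where 21.1% of all tested genes did. In 17 of these 29, experiment 9 was highest in all 4 groups. That pattern held for 7.51% of all tested genes, which were not first selected by the test, so the shares are not comparable. The 17 include Ube2l6, the enzyme that conjugates ISG15 (1.43 against experiment 5, adjusted p = 0.0022), Ifi203 (1.61, 0.00247), Trim30d (2.72, 0.00376) and the chemokine Cxcl10 (1.77, 0.00864).

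Several members were higher in quiescence, mostly past the threshold only with a term for experiment, and the size of the change varied by experiment. In control cells Ddx58 rose by 1.15 on the log2 scale (SE 0.37, edgeR adjusted p = 0.0486, higher in 3 of 3 experiments), and its quiescent libraries (50.4 to 86.7 CPM) lay above all proliferating ones (18.5 to 48.4 CPM). It was the 1 member of 35 that passed there and no member fell. Of all tested genes 8.33% rose and 11.7% fell, so the members' share is below the background. With a term for experiment in the model (the replicate block), 9 members rose and none fell, where 16.8% of genes rose and 18.5% fell. In knockdown cells no member passed in edgeR's quasi-likelihood test, where 7.59% of genes rose and 10.8% fell. At an unadjusted p under 0.05 there were 3 members, and 4089 of 12406 genes in both directions. In DESeq2, 2 members rose, Oas3 and Ddx58, where 1350 of 12406 genes rose. With the block in edgeR 10 members rose and none fell, where 15.9% of genes rose and 17.2% fell. The call of Ddx58 in controls was lost when any 1 of 8 libraries was left out (the proliferating controls of experiments 7 and 9, the proliferating knockdown library of experiment 5, the quiescent controls of experiments 5 and 9 and all 3 quiescent knockdown libraries), and without experiment 7 or 9 (adjusted p = 0.143 and 0.283).

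Ifi44 and Lgals3bp were higher in quiescence in every experiment with both hairpins. Ifi44 was higher in quiescent controls by 1.49, 2.09 and 3.31 in experiments 5, 7 and 9, and in quiescent knockdown cells by 1.39, 2.60 and 2.64. The quiescent values did not overlap the proliferating ones in either hairpin, and Ifi44 rose with the block (2.42, SE 0.34, adjusted p = 0.000485 in controls and 2.25, SE 0.33, adjusted p = 0.000714 in knockdown cells) but did not pass without it (adjusted p = 0.0763 and 0.124). Lgals3bp rose with the block by 1.64 (SE 0.30, adjusted p = 0.00229) and 1.96 (SE 0.30, adjusted p = 0.000802), with 0.129 and 0.101 without it. Ifi44 and Lgals3bp rose with the block in both hairpins also when experiment 5, 7 or 9 was left out.

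Other members rose with the block and not without it. Oas3 rose by 2.41 (SE 0.59, adjusted p = 0.0103) in controls and 2.06 (SE 0.57, adjusted p = 0.0193) in knockdown cells, and its differences in experiments 5, 7 and 9 were 0.85, 1.89 and 3.27 in controls and 0.09, 1.54 and 3.23 in knockdown cells. Without experiment 7 the adjusted p of Oas3 with the block was 0.0713 in controls and 0.0929 in knockdown cells, and without experiment 9 it was 0.0923 and 0.287, with a log2 fold change of 0.90 in knockdown cells. Bst2 rose by 0.78 (adjusted p = 0.0124) and 0.95 (0.00441), Parp14, a mono-ADP-ribose transferase, by 1.13 (0.0356) and 1.16 (0.0326), and Ifi35 by 0.36 (0.0444) and 0.37 (0.0413). Parp14 stood at 47.1, 14.4 and 25.2 in proliferating controls, 45.3, 16.6 and 47.6 in proliferating knockdown cells, 60.9, 36.8 and 94.0 in quiescent controls and 45.0, 59.2 and 126 in quiescent knockdown cells. Irf9 (0.97, 0.00771) and Stat2 (0.65, 0.0185) rose in controls, and Oasl2 (1.88, 0.013), Mx2 (1.67, 0.0249) and Irf7 (0.86, 0.0338) in knockdown cells. Apart from Bst2 in knockdown cells, which passed with the block in all 3 leave-outs (0.0115 to 0.0248), the other calls of this paragraph were lost without experiment 7 and again without experiment 9, where Mx2 was not tested, and that of Ifi35 in knockdown cells also without experiment 5. The hairpins were not shown to differ in any of these, since no member passed the test of the interaction. The quiescent controls lay above all proliferating controls for Irf9 (35.7 to 91.1 against 18.3 to 30.9 CPM). Without the block, adjusted p ran from 0.135 to 0.576 over the members and hairpins named in this paragraph.

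**Figure D3:**
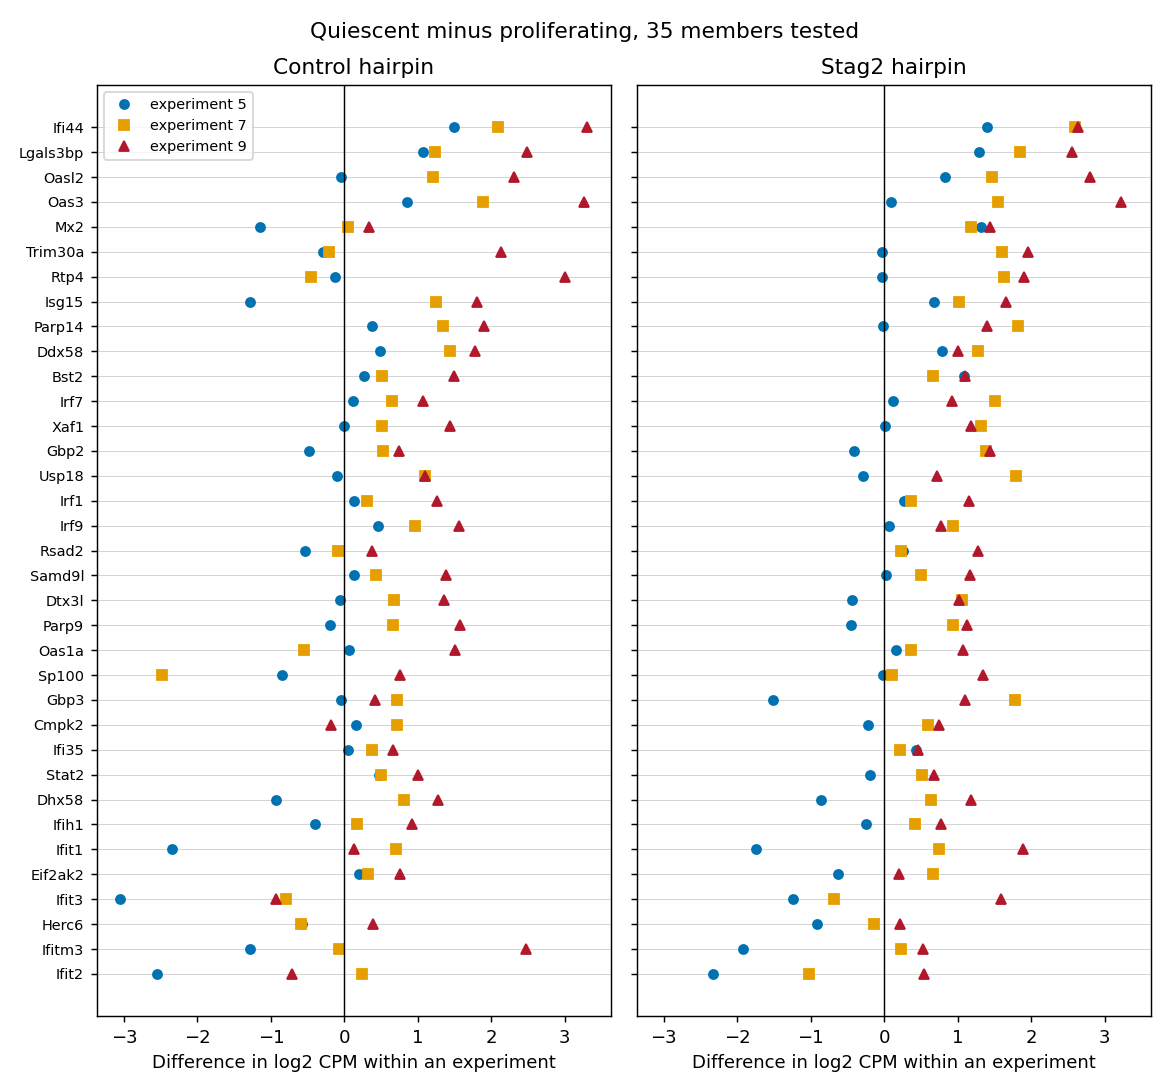
Quiescent minus proliferating level (x axis, difference in log2 CPM) of the 35 tested members in experiments 5 (circles), 7 (squares) and 9 (triangles), for the control hairpin (left) and the Stag2 hairpin (right). Circles scatter around 0, while triangles lie right of 0 for 32 members with the control hairpin and for 35 with the Stag2 hairpin.

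The 3 experiments did not respond alike. The median change over the 35 tested members in controls was -0.05 in experiment 5, 0.51 in experiment 7 and 1.27 in experiment 9, with 15, 27 and 32 members positive. In knockdown cells it was -0.02, 0.93 and 1.16, with 16, 32 and 35 positive. The median of all 12406 genes stayed within 0.02 of 0 in each (-0.0049 to 0.0148), where TMM scaling itself keeps it. Of the 35 members, 10 were higher in quiescence in all 3 experiments with both hairpins: Bst2, Ddx58, Ifi35, Ifi44, Irf1, Irf7, Irf9, Lgals3bp, Oas3 and Samd9l. Among all tested genes 20.8% were, so the members' share is near the background. Another 8 members (Dhx58, Dtx3l, Gbp2, Gbp3, Ifih1, Ifit1, Parp9 and Usp18) were lower in both quiescent libraries of experiment 5 and higher in all 4 comparisons of experiments 7 and 9, which was true of 1.99% of all tested genes. An F test of whether the response to quiescence differed between experiments (4 residual degrees of freedom) was passed by 12 of 35 members, where 5.27% of all tested genes passed. The control and knockdown libraries of an experiment stood in as its replicates of a state there, with the mean knockdown effect in each state removed. Its p-values therefore measure how far the hairpins disagreed within an experiment, not the spread between repeats of a culture. When 1 library was left out, the count ran from 0 (without the proliferating control of experiment 5) to 21 (without the quiescent control of experiment 5).

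The members that passed this test span the roles: the factor Irf1 (edgeR adjusted p = 0.0286), the sensors Ifih1 (0.0274) and Dhx58 (0.0369), the effectors Oas3 (0.0256), Oasl2 (0.0181), Ifitm3 (0.0302) and Gbp2 (0.042), Usp18 (0.0326), Dtx3l (0.0333) and its partner Parp9 (0.0115), and Ifi44 (0.0321) and Lgals3bp (0.0366). Parp9, which forms a complex with Dtx3l, changed by -0.20, 0.66 and 1.57 in controls and by -0.45, 0.94 and 1.13 in knockdown cells. Its level in growing controls was 44.2, 17.5 and 23.7 CPM, so experiment 5 started highest, and in quiescent controls 38.4, 27.8 and 70.5 CPM. Dhx58 changed by -0.93, 0.81 and 1.27 and by -0.86, 0.64 and 1.18. Mki67 also differed among quiescent cultures, at 0.552, 6.24 and 7.93 CPM in controls and 5.49, 33.6 and 17.6 CPM in knockdown cells, and its part in these differences was not tested.

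Ifit1, Ifit2 and Ifit3 had fewer counts in the quiescent than in the proliferating libraries of experiment 5. Ifit1 went from 21 counts in proliferating to 2 in quiescent controls and from 36 to 12 in knockdown cells. Ifit3 went from 15 to 0 and from 10 to 4 counts, and Ifit2 from 10 to 0 and from 8 to 0. Ifitm3 also differed in this direction there, by -1.29 in controls and -1.92 in knockdown cells on the log2 scale. In experiment 9 the same genes had 200 and 208 (Ifit1), 60 and 29 (Ifit3) and 51 and 29 counts (Ifit2) in proliferating and quiescent controls, so quiescent controls were not above proliferating ones in Ifit2 and Ifit3 there either, while Oas3 went from 26 to 255 and Ifi44 from 116 to 1111 counts. In knockdown cells of experiment 9, Ifit1 went from 105 to 388 and Ifit3 from 27 to 84 counts. None of the 3 passed the quiescence test in either hairpin, without or with the block (edgeR adjusted p from 0.106 to 0.973). Oasl1, removed by the filter, had 28 and 26 counts in the proliferating libraries of experiment 9 and 5 in each quiescent one, the reverse of Oas2, which had 4 and 1 counts in the proliferating and 39 and 40 in the quiescent libraries of that experiment. Mx1 reached 15 and Zbp1 5 counts at most in any library.

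Knockdown of Stag2 changed no member past the threshold in growing cells. None of 35 passed in edgeR's quasi-likelihood test, where 0.0242% of all tested genes did, and none in DESeq2, where 12 of 12406 genes did. At an unadjusted p under 0.05 there were 0 members and 228 genes. With the block none passed either, where again 0.0242% of genes did. There 1 member, Rsad2, was at an unadjusted p under 0.05, and 645 genes were. The median change was 0.15, with -0.09, 0.04 and 0.38 in experiments 5, 7 and 9. Values of the Stag2 hairpin and the control hairpin overlapped for each of the 39 members, a pattern not counted here over all genes. This overlap cannot decide whether a change was present within experiments, since experiment 9 stood apart from the others in most members. Rsad2, for example, overlapped although it was higher after knockdown in each experiment.

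In quiescent cells no member passed either, where 0.435% of all tested genes did, and none in DESeq2, where 387 of 12406 genes did. At an unadjusted p under 0.05 there were 0 members and 1489 genes. With the block 1 of 35 members passed, Rsad2, where 3.55% of genes did. Rsad2 was at 2.76, 2.75 and 14.4 CPM in quiescent controls and 6.71, 7.40 and 33.5 CPM in quiescent knockdown cells. Within each experiment the knockdown library was higher by a similar amount, 1.25, 1.39 and 1.21 on the log2 scale, although the groups overlap because experiment 9 controls lie above the knockdown cells of experiments 5 and 7. The log2 fold change was 1.25 without the block (SE 0.82, edgeR adjusted p = 0.613) and 1.27 with it (SE 0.25, adjusted p = 0.0262). With the block and without experiment 5, 7 or 9 it was 1.28, 1.22 and 1.35, and no longer past the threshold (adjusted p = 0.11, 0.152 and 0.129). In growing cells the same gene was higher by 0.46, 1.07 and 0.32. Rsad2 and Lgals3bp were the 2 tested members higher after knockdown in all 3 experiments in both states, a share below the 9.69% of all tested genes with that pattern. Cmpk2, the kinase gene next to Rsad2 (37.1 kb for the pair on chromosome 12), was at 2.90, 2.26 and 6.74 CPM in quiescent controls and 3.04, 3.76 and 8.85 CPM in quiescent knockdown cells, and did not pass without or with the block.

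**Figure D4:**
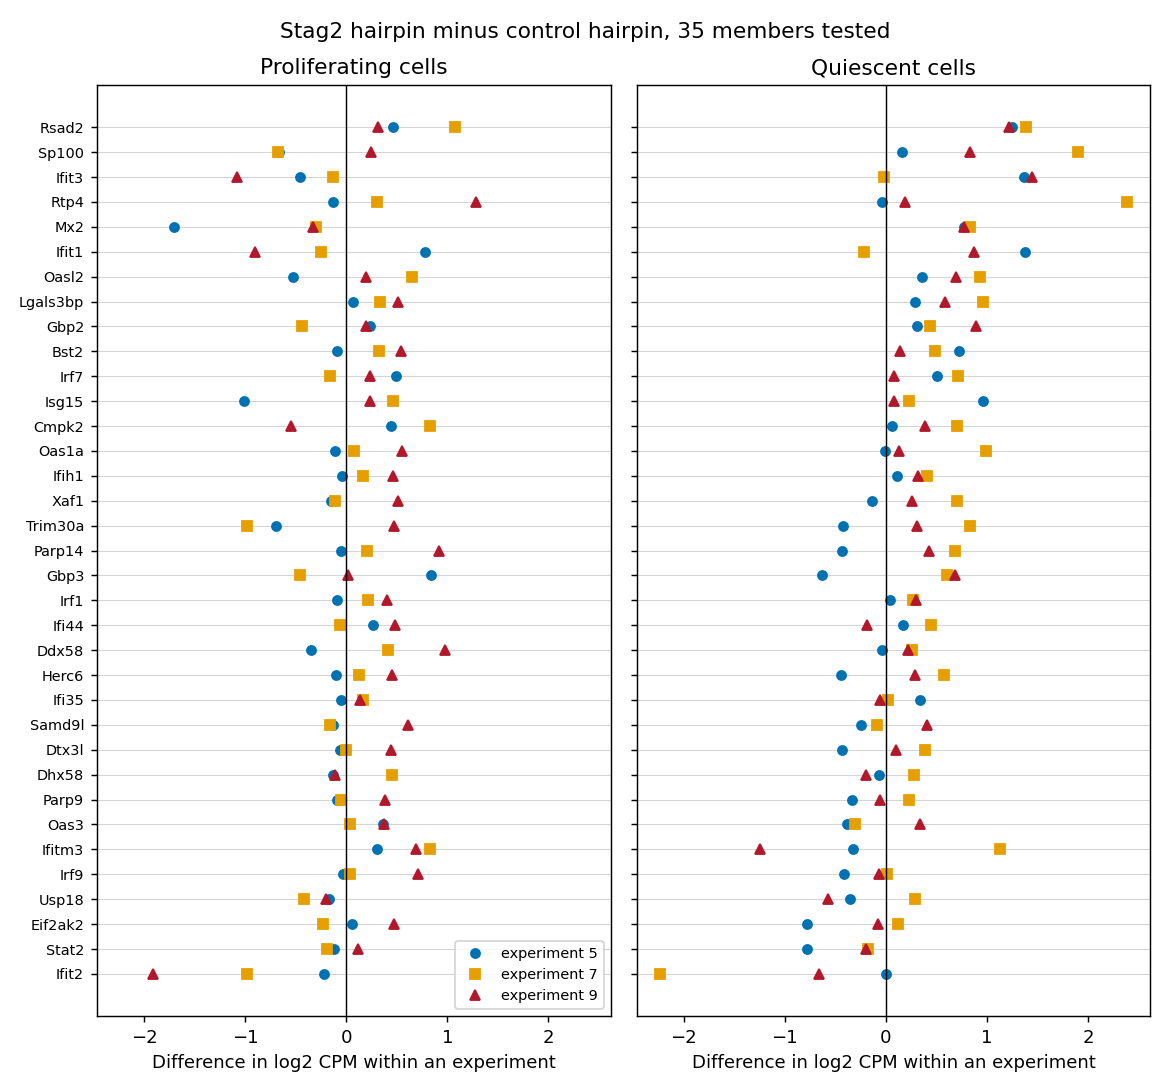
Stag2 hairpin minus control hairpin (x axis, difference in log2 CPM) of the 35 tested members in experiments 5 (circles), 7 (squares) and 9 (triangles), in proliferating (left) and quiescent cells (right). In quiescent cells the 3 symbols of Rsad2 lie together between 1.21 and 1.39, while most members have symbols on both sides of 0 in at least 1 panel.

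No member showed a knockdown effect that differed between the states. None of 35 passed the test of the interaction without the block or with it, and 0.00% of all tested genes passed in either fit. At an unadjusted p under 0.05 there were 0 members and 219 of 12406 genes without the block. With it there were 1 member and 590 genes. That member was Mx2, which was lower after knockdown in growing cells (-1.70, -0.30 and -0.33) and higher in quiescent cells (0.77, 0.83 and 0.78). It rests on few counts: 1, 2 and 13 in growing knockdown cells and 2, 3 and 21 in quiescent controls.

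The rest of the pathway list was tested in the same way, with 104 of 105 genes found in the table and 76 tested. With quiescence in controls 8 of 76 rose and 5 fell, where 8.33% of all tested genes rose and 11.7% fell, and with the block 18 rose and 7 fell, where 16.8% and 18.5% did. In knockdown cells 6 rose and 4 fell, where 7.59% and 10.8% did, and with the block 17 rose and 6 fell, where 15.9% and 17.2% did. Without the block the shares that rose are near the background. The receptor genes Ifngr2 (0.93 in controls, edgeR adjusted p = 0.00362, and 0.86 in knockdown cells, 0.00583) and Il28ra (1.07, 0.00472, and 0.76, 0.0263) rose in both, and Ifnar1 with the block (0.41, 0.0332, and 0.42, 0.0312). Tor3a, a relative of the torsin ATPases, rose by 1.38 (0.000197) and 1.11 (0.00101), the sensor Tlr3 by 0.45 (0.0224) and 0.69 (0.00294) and the GTPase gene Ifi47 by 1.82 (0.0418) and 1.82 (0.0433). In controls Irgm1 (0.67, 0.0215) and Shisa5 (0.52, 0.0426) passed, and in knockdown cells the exonuclease gene Isg20 (0.79, 0.0104). The genes that fell include the DNA sensor Cgas, listed as E330016A19Rik (-2.72, 0.000626, and -2.22, 0.00214), the inhibitor Socs3 (-1.38, 0.00125, and -1.31, 0.00207), the Schlafen gene Slfn9 (-4.38, 0.000107, and -2.80, 0.00124), Pnpt1 (-0.72, 0.0223, and -0.63, 0.0408) and, in controls, Slfn8 (-3.59, 0.0351). Each of these 4 pairs of changes had the same sign in all 3 experiments.

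With the block only, Ticam1, the adaptor of Tlr3 (0.79, edgeR adjusted p = 0.00772, and 0.76, 0.00999), Irf2bp2 (0.41, 0.0175, and 0.39, 0.0219), Ifi27l1 (0.82, 0.00725, and 0.79, 0.00866), Oas1c (0.77, 0.0413, and 1.08, 0.00903) and Trim30d (2.25, 0.0235, and 2.25, 0.0159) rose in both hairpins. Epsti1 (4.86, 0.00285) and Uba7 (1.00, 0.0403) rose and Socs1 (-1.16, 0.0194) and Tmem173, the adaptor STING (-0.36, 0.0445), fell in controls. Nmi (0.63, 0.00948) and Gbp4 (1.37, 0.026) rose and Jak2 (-0.59, 0.0481) and Ifi204 (-0.79, 0.0253) fell in knockdown cells. After knockdown no gene of the list passed in growing cells (edgeR's quasi-likelihood test, without or with the block). At an unadjusted p under 0.05 there were 1 and 7 of the 76, and 228 and 645 of 12406 genes. In quiescent cells none passed without the block, with 10 of 76 and 1489 of 12406 genes at an unadjusted p under 0.05. With the block Tlr3 (0.48, 0.0367) and Isg20 (0.76, 0.0386) rose and Pias1, an inhibitor of STAT signalling (-0.53, 0.0407), fell. There 3.55% of all tested genes differed, so the share of the list is near the background.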

How the data were processed

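Polyadenylated RNA of 12 NU1 libraries was sequenced after ERCC spike-in RNA had been added, with a stranded kit, per the labels' protocols. The table that the authors deposited holds raw, unnormalized whole-number counts for 23337 gene symbols, and no ERCC row is among them. The submitters' processing notes name Bowtie, TopHat, HTSeq, DESeq2 and the build mm10, without versions or roles, and the annotation and the strand setting of the counting are not given in the sources used here.

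Counts were tested in R 4.3.3 with edgeR 4.0.16 after filterByExpr (minimum count 10), which left 12406 genes, with TMM scaling, 4 group means, glmQLFit and glmQLFTest on all 12 libraries. The Benjamini-Hochberg adjustment ran over all 12406 genes, and calls were made at 0.05. CPM used TMM-scaled totals, and log2 CPM a prior count of 2. The scripts were tested on simulated data. Replicates differed by more than sampling noise (chi-square per degree of freedom 36.6 to 99.7). PCR copies are not separate molecules, so floors cover counting error only.

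The experiment number, which the labels also give as the batch, pairs the libraries. Residuals of libraries of the same experiment correlated by 0.225 to 0.789 across genes (mean 0.526, 18 pairs), and those of different experiments by -0.259 on average (36 pairs). Residuals were taken from the mean of each group, so the negative average follows largely from the positive one and is not separate support. The block adds the experiment number to the model.

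Members and lists were chosen with earlier results of these data known. Values in every library are given for members past the threshold in a contrast of states or hairpins with or without the block, the 5 members of lowest p in each such contrast, the 5 with the largest range of experiment means, and Stat2, Irf9, Irf7 and Irf1. Other genes of the pathway list are named when past the threshold, apart from a few that are counted but not reported here by name, with every ligand that had a count and every receptor. Genes given beyond this rule (Cmpk2, Usp18, Dhx58, Parp9 and others with single values) were chosen after their values were seen. Motifs were searched in RefSeq promoter windows of GRCm38.p6, the same assembly as mm10. Alternatives were the block, size factors by median of ratios, DESeq2 1.42.0, other filters on low counts, only the libraries of a contrast, and leaving out each library or experiment. The block without 1 experiment, and experiments 5 and 7 alone, were added after seeing the data.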

Additional observations from a re-analysis of the deposited data

Results flagged for a closer look

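The response to quiescence differed between experiments 5, 7 and 9 for 12 of 35 tested members in an F test of that difference (edgeR, adjusted over all genes, 4 residual degrees of freedom), where 5.27% of all tested genes passed. The control and knockdown libraries of an experiment stood in as its replicates of a state, so the test had no repeats of a culture. The adjusted p was 0.03023 for Ifitm3, 0.02862 for Irf1, 0.02556 for Oas3, 0.01811 for Oasl2, 0.03261 for Usp18, 0.03686 for Dhx58, 0.02737 for Ifih1, 0.04203 for Gbp2, 0.01153 for Parp9, 0.03325 for Dtx3l, 0.03209 for Ifi44 and 0.03664 for Lgals3bp. The number of members that passed ran from 0 to 21 when single libraries were left out.

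Mx2 was lower after knockdown in growing cells and higher after it in quiescent cells in all 3 experiments. The interaction log2 fold change was 1.64, and it did not pass the test of the difference (edgeR adjusted p = 0.9997, and 0.974 with the block).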

How the results depend on the processing

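The counts of members past the threshold depended on the term for experiment. With the replicate block they were 1 for knockdown in quiescent cells, 9 for quiescence in controls and 10 for quiescence in knockdown cells, against 0, 1 and 0 without it, and DESeq2 with the block gave 1, 10 and 13. The block changed no other call. Of all tested genes 3.55% differed, and 16.8% and 15.9% rose, with the block, against 0.435%, 8.33% and 7.59% without it. DESeq2 with the block called 1019 of 12406 genes for knockdown in quiescent cells. It found 2242 and 2190 genes higher in quiescence in controls and in knockdown cells. For quiescence in controls and in knockdown cells, DESeq2 without the block gave 3 and 2 members, where 1426 and 1350 of 12406 genes rose. The fit to only the libraries of the contrast gave 0 and 1, where 598 of 11954 and 804 of 12071 genes rose. The block without experiment 5 gave 21 and 22 of 37 members, where 1962 and 1674 of 12505 genes rose. Without experiment 7 it gave 2 and 3 of 37, where 865 and 1000 of 12566 genes rose. Without experiment 9 it gave 2 and 4 of 32, where 860 and 869 of 12296 genes rose. Without the block, controls gave 0 without experiment 7 and 0 without experiment 9, and knockdown cells gave 2 without experiment 9. Over all genes, 185 of 12566, 274 of 12296 and 265 of 12296 rose in these fits. The difference between experiments gave 2 when experiments 5 and 7 alone were compared, where 4.46% of 12296 genes passed. The cause of these differences was not tested, apart from the smaller number of libraries where some were left out.

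Leaving out single libraries, 0 to 3 members passed the threshold for quiescence in controls and 0 to 1 in knockdown cells. In controls there were 0 when any 1 of 8 libraries was left out and 3 without the proliferating control of experiment 5. Of the 12547 to 12648 genes tested in these fits, 486 to 1340 rose in controls and 456 to 1013 in knockdown cells. For the response to quiescence between experiments, 0 members passed without the proliferating control of experiment 5. There were 21 without the quiescent control of experiment 5. For that test the counts over all genes are not reported here. The median log2 fold change of the tested members ranged from -0.37 to 0.43 for knockdown in growing cells, from -0.79 to 1.34 for knockdown in quiescent cells, from -0.34 to 1.04 for quiescence in controls, from -0.14 to 1.32 for quiescence in knockdown cells and from -0.92 to 1.21 for the interaction. The lowest or highest of each came without an experiment 9 library. Signs turned in some members when 1 experiment 9 library was left out. For knockdown in growing cells the range over single libraries was -1.72 to 0.41 for Ifit3 and -0.18 to 0.60 for Irf9. For knockdown in quiescent cells it was -0.28 to 2.04 for Sp100, -1.80 to 4.09 for Ifit3, -0.017 to 0.55 for Ifih1 and -0.23 to 1.29 for Gbp2. For quiescence it was -0.040 to 1.48 for Bst2 in controls and -0.31 to 2.02 for Irf7 in knockdown cells. Without experiment 9 altogether the change of Ddx58 with knockdown in growing cells was -0.088. None of these was past the threshold. For the contrasts of states and hairpins and for the interaction, the remaining alternatives left the counts of members within 1.5 times of those reported. In the F tests between experiments further counts moved by more than that, and they are not listed here. Depth limits Mx2, Ifit2, Ifit3, Gbp3, Trim30a and the 4 members below the filter, which held fewer than 10 counts in at least 6 of 12 libraries.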
